A study of Homo sapiens and Mus musculus with 16 samples.

Results

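The genes described here are the histone cluster genes, taken as every row of the deposited tables whose symbol starts with HIST1H, HIST2H, HIST3H or HIST4H in human and Hist1h, Hist2h, Hist3h or Hist4h in mouse. There were 90 such genes in the table for MDA-MB-231 and 70 in the table for CT26, of 112509 genes in both tables together. MDA-MB-231 was established from a human breast cancer without hormone receptors or ERBB2 amplification, and CT26 from a colon carcinoma of the mouse. Each line gave 8 libraries, 4 with an intact PD-L1 gene (PD-L1 WT) and 4 after disruption of that gene by CRISPR delivered with a lentivirus (PD-L1 KO). All cells were grown in medium with serum, penicillin and streptomycin, DMEM for MDA-MB-231 and RPMI 1640 for CT26. The sources used here do not say if the knockout cells were a clone or a pool, nor if replicate libraries stand for separate cultures. A p-value here therefore reflects only the spread between libraries, which may be technical. The design compares knockout with wild type within each line.

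Replication-dependent histone genes sit in a large cluster and a few small ones and encode the H2A, H2B, H3 and H4 proteins of the nucleosome core and the H1 linker that binds between nucleosomes. They are transcribed mainly in S phase, when new DNA has to be packaged. Their mRNAs are unusual in ending at a short stem-loop in place of a poly(A) tail, and this stem-loop is bound by the protein SLBP. Some members also give polyadenylated transcripts that run past the stem-loop and can be made outside S phase. Libraries that select poly(A) RNA see mainly the second kind. The sources used here do not give how the RNA of these libraries was selected. In bulk RNA, fewer cells in S phase and less histone mRNA per cell cannot be told apart.

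Values are FPKM, which count fragments relative to the length of the transcript and to the size of the library and so allow levels to be compared between genes per unit of length. Differences were tested with limma on log2(FPKM + 1), which understates the change of genes near or below 1 FPKM. Only genes that reached 1 FPKM in 4 or more of the 8 libraries were tested. A gene is said to rise, fall, or be higher or lower where its p-value, adjusted by Benjamini-Hochberg over all tested genes of the line, was below 0.05.

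With the first wild type library of each line set to 1, the depth of MDA-MB-231 ranged from 0.941 to 1.21 for wild type libraries and from 0.509 to 0.78 for knockout libraries, and that of CT26 from 0.799 to 1.14 and from 0.926 to 2.49. The sum of all FPKM values in MDA-MB-231 was 750800 to 788000 for wild type and 847900 to 927600 for knockout libraries. CD274, which encodes PD-L1, had 12.2 ± 0.67 FPKM in the wild type and 10.6 ± 1.91 in the knockout of MDA-MB-231 (SD, n = 4 each; limma adjusted p = 0.166; two-sided exact permutation p = 0.229). The RNA level of the target thus does not check the MDA-MB-231 knockout label, which was kept as given; disruption by CRISPR need not lower the transcript. Cd274 in CT26 had 1.41 ± 0.127 and 0.526 ± 0.0552 FPKM (limma adjusted p = 0.000142; exact permutation p = 0.0286, the smallest that 4 against 4 libraries allow). Many genes differed in both lines: 6149 were higher and 3711 lower of 14450 tested in MDA-MB-231, and 2534 higher and 3794 lower of 11342 in CT26. The median log2 fold change over all tested genes was 0.18 in MDA-MB-231 and -0.06 in CT26. After upper-quartile scaling it was -0.01 and 0.03, with 4736 higher and 4851 lower genes in MDA-MB-231 and 3316 and 2840 in CT26. Of 11 tested epithelial or mesenchymal markers in MDA-MB-231, 9 fell and 2 rose: KRT7 fell from 1370.0 to 37.8 FPKM and CD44 from 1093 to 321, and VIM rose from 1113 to 2545. Of 10 leukocyte markers, 3, CD3E and MS4A1 among them, were listed at 0 in all MDA-MB-231 libraries, CSF1R (4.32 and 0.407 FPKM in wild type and knockout) and CD14 (2.69 and 0.719 FPKM) were lower in the knockout, and the summed level of the list was 6.58 to 9.8 FPKM for wild type libraries and 0.641 to 1.99 for knockout libraries. In CT26, 5 of 9 leukocyte markers were at 0, and the summed level, almost all of it Cd14, was 16.03 to 19.01 FPKM for wild type libraries and 49.6 to 56.5 for knockout libraries.

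In MDA-MB-231, 10 of the 20 histone cluster genes with enough reads to test were lower in the knockout, and the most abundant of them was higher. Of the 90 genes, 41 were listed at 0 in all 8 libraries, 29 had a value above 0 but did not reach the filter, and 20 were tested. Among the 41 were HIST2H2AA3, HIST2H2AA4, HIST2H3A, HIST2H3C, HIST2H4A, HIST2H4B and HIST1H4K, which share 97.1% to 100% of their 50-base words with other members. Whether their 0 reflects how such reads were assigned was not tested. Of the 20 tested genes, 10 fell, 1 rose and 9 did not pass the test. By the q-value in the authors' deposited table, 6 of the 20 were lower and 2 higher: HIST1H4I was higher (q = 0.0385), and HIST1H2BC, HIST1H2BO, HIST1H3C and HIST2H2BA did not pass. Over all genes tested, 68.2% passed the test, 25.7% as lower and 42.6% as higher. The median log2 fold change of the 20 was -0.50, beside 0.18 over all tested genes. Groups did not overlap for 9 of the 20 in the lower direction and 1 in the higher, where the backgrounds were 23.6% and 39.1% of all tested genes (62.7% together). The knockout libraries were the shallower ones and held values above 0 for 30 to 34 of the 90 genes, against 38 to 41 in the wild type; the part of depth in this was not tested. HIST2H2BA and HIST2H2BE reached the filter through the wild type alone, since no knockout library had 1 FPKM of either, so a lower knockout level was built into their being tested and their calls add nothing to the count. The median and the 9 genes without overlap include both, so their part in them was fixed too.

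**Figure D1:**
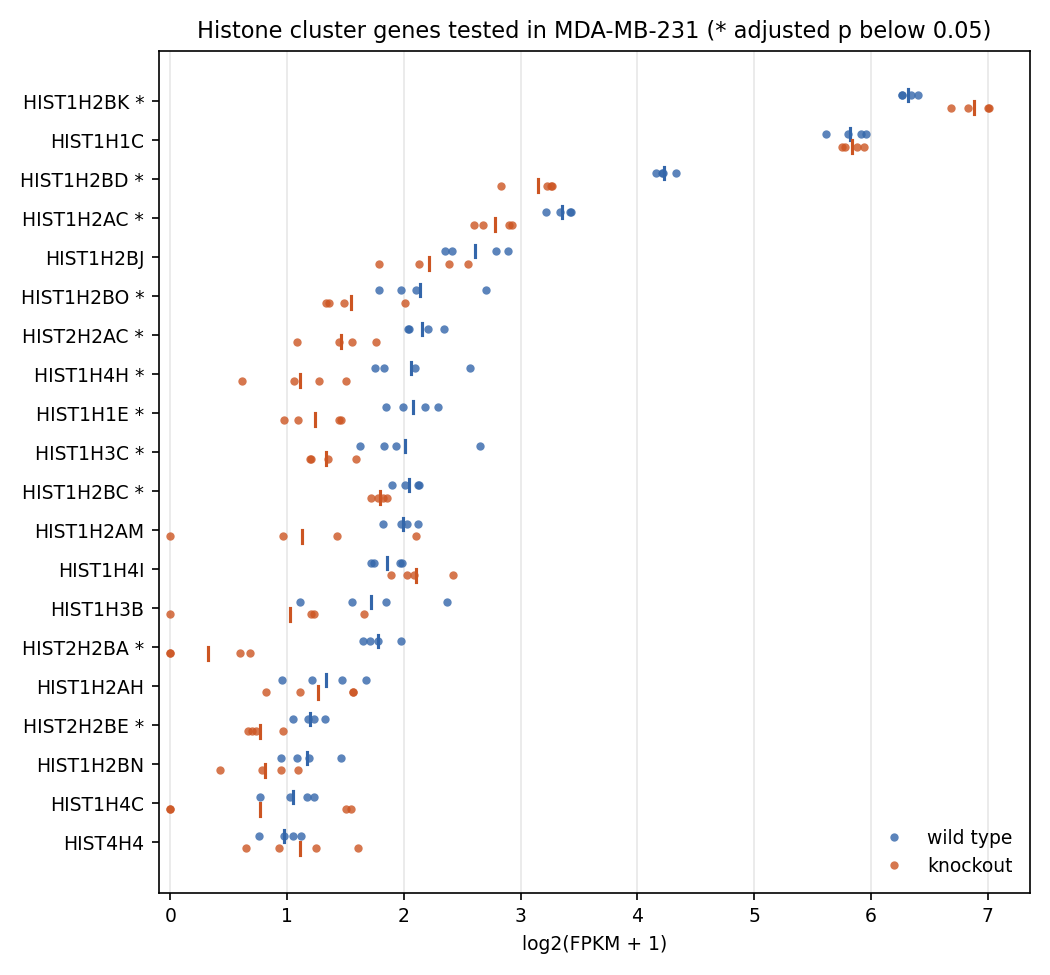
Level of each tested histone cluster gene in MDA-MB-231, as log2(FPKM + 1) on the horizontal axis, with a point per library (blue, wild type; orange, knockout; 4 each), a bar at each group's mean, and a star where the limma adjusted p was below 0.05. HIST1H2BK, at the top, is the starred gene with all 4 knockout libraries to the right of the wild type, and the other 10 starred genes have their knockout mean to the left.

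HIST1H2BK encodes an H2B core histone and was the most abundant member in both groups. Its wild type replicates 1 to 4 had 80.2, 83.4, 75.8 and 76.1 FPKM and its knockout replicates 113, 128, 127 and 102 FPKM. Every knockout library was above every wild type library. The log2 fold change was 0.56 (SE 0.078, limma adjusted p = 0.000203), and the gene stayed higher under all 18 alternative settings. In hg38 it lies on chromosome 6 from 27146418 to 27146798 on the minus strand, and its GENCODE 29 model is a single exon of 381 bases that is coding throughout. The nearest coding sequence among the members, HIST1H2BE, was 94.0% identical to it, and 22.6% of its 50-base words also occurred in other members, so some reads could have been assigned to either.

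HIST1H2BD, another H2B gene about 1 Mb away, went the other way. Its wild type libraries had 17.6, 19.1, 17.5 and 16.9 FPKM and its knockout libraries 8.58, 8.64, 8.33 and 6.12. The groups were far apart, and knockout replicate 4 was the lowest. The log2 fold change was -1.08 (SE 0.11, limma adjusted p = 2.44e-05), and without knockout replicate 4 it was -0.98. The gene spans 26158146 to 26171349 on the plus strand of chromosome 6 and has a pair of transcript models, of which 1 ends shortly after the stem-loop and the other, of 789 bases, is spliced past it. Only 5.4% of its 50-base words occurred in other members.

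The promoters of these genes are printed because the genes moved in opposite directions, together with that of the H2B gene HIST2H2BE of cluster 2. The sequences are RefSeq promoters on GRCh38.p14, from 140 bases before to 10 after the annotated start, 5′ to 3′ on the gene's strand: HIST1H2BK at chr6:27146849-27146998 (minus strand), HIST1H2BD at chr6:26157981-26158130 (plus strand) and HIST2H2BE at chr1:149886673-149886822 (minus strand). Capitals mark the TATA box (TATAAA), the CCAAT box (CCAAT) and the octamer (ATTTGCAT), each searched on both strands; the first 3 capitals of HIST2H2BE are the end of a CCAAT box that starts before the window.
HIST1H2BK: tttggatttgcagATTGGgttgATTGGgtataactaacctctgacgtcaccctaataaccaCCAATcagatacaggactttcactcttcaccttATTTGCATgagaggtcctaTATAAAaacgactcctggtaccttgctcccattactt
HIST1H2BD: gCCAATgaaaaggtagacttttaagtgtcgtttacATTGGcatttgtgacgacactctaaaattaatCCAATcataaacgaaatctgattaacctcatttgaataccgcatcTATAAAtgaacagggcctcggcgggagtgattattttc
HIST2H2BE: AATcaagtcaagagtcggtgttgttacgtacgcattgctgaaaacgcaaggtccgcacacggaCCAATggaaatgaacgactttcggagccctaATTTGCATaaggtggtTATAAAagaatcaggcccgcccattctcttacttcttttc
All of these promoters held a TATA box and CCAAT boxes. The octamer, which is the binding sequence of the POU2F1 transcription factor and is known from H2B promoters, stood at -46 from the start in both HIST1H2BK and HIST2H2BE, and these letters were not in the HIST1H2BD window. A promoter was matched for 61 of the 90 genes. Over windows from 250 bases before to 50 after the start, TATAAA was found in 67.2% of the 61, beside 11.5% of all 35116 promoters of the table. CCAAT was in 83.6%, beside 34.6%. It was present in all 6 H1, 16 H2A, 13 H2B and 13 H3 promoters and in 3 of 13 H4 promoters. The octamer was in 34.4%, beside 1.77%, with 9 of 13 H2B and 11 of 16 H2A promoters holding it and no H4 promoter. These matches describe the sequences and are not evidence of binding.

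Of the 26 H2B genes, 8 were tested, and besides HIST1H2BK and HIST1H2BD these were 6 genes at lower levels. HIST2H2BA and HIST2H2BE, both from cluster 2, and HIST1H2BC and HIST1H2BO fell, while HIST1H2BJ (-0.40 on the log2 scale, adjusted p = 0.0969) and HIST1H2BN (-0.36, adjusted p = 0.093) did not pass the limma test. HIST1H2BC had 3.12 ± 0.306 FPKM in the wild type and 2.47 ± 0.142 in the knockout (SD, n = 4), a log2 fold change of -0.25 (limma adjusted p = 0.0367). HIST1H2BO had 3.54 ± 1.36 and 1.98 ± 0.706 FPKM (-0.59, limma adjusted p = 0.0426), with overlapping groups. Both calls were close to the threshold and were lost when any of several single libraries was left out. The HIST1H2BC call was lost when wild type replicate 2, 3 or 4 or knockout replicate 1, 2 or 3 was left out, with adjusted p from 0.0548 to 0.0966. The HIST1H2BO call was lost without wild type replicate 1, 2 or 3 or knockout replicate 1, 3 or 4, with adjusted p from 0.0548 to 0.0992. HIST1H2BJ passed the test when knockout replicate 1 was left out (-0.51, limma adjusted p = 0.0482).

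The H2A genes were also lower where they passed the test. HIST1H2AC, which encodes an H2A core histone had 9.69, 9.11, 8.29 and 9.77 FPKM in the wild type libraries and 5.40, 6.47, 6.59 and 5.07 in the knockout. The groups did not overlap, and the log2 fold change was -0.57 (SE 0.10, limma adjusted p = 0.000883). HIST2H2AC had 4.08, 3.13, 3.10 and 3.62 FPKM in the wild type and 1.12, 2.40, 1.93 and 1.72 in the knockout, again without overlap (-0.70, SE 0.15, limma adjusted p = 0.00326). Of the 50-base words of HIST2H2AC, 30.5% occurred in other members, so some of its reads could have been assigned to them or theirs to it. HIST1H2AM had 2.54 to 3.36 FPKM in the wild type and close to 0, 3.30, 0.95 and 1.69 FPKM in the knockout libraries. Knockout replicate 2 reached the wild type level, and the difference of -0.86 did not pass the limma test (adjusted p = 0.0729); without that library it was -1.19 (adjusted p = 0.0097). Of the 50-base words of HIST1H2AM, 86.3% occurred in other members, so its own level is uncertain. HIST1H2AH had 1.56 ± 0.547 and 1.46 ± 0.597 FPKM and a difference of -0.07 (adjusted p = 0.802).

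Both tested H1 genes, which encode linker histones, were from cluster 1. HIST1H1C was the second most abundant member, with 47.9, 61.0, 55.0 and 59.5 FPKM in the wild type and 52.8, 60.3, 53.8 and 57.8 in the knockout. The groups overlapped fully and the log2 fold change was 0.01 (SE 0.083, limma adjusted p = 0.902). Its direction depended on the scaling: it was -0.20 after upper-quartile scaling (adjusted p = 0.0294) and -0.21 after quantile normalization (adjusted p = 0.024). HIST1H1E had 3.90, 2.98, 3.52 and 2.60 FPKM in the wild type and 1.75, 0.962, 1.13 and 1.72 in the knockout. All knockout libraries were lower, with a log2 fold change of -0.83 (SE 0.15, limma adjusted p = 0.00112).

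Of 17 H3 genes and 16 H4 genes, 2 and 4 were tested, and 1 of each type fell. HIST1H4H, an H4 gene, had 2.55, 2.36, 3.28 and 4.91 FPKM in the wild type and 1.41, 1.84, 0.534 and 1.09 in the knockout, without overlap (-0.95, SE 0.23, limma adjusted p = 0.00603). HIST1H3C, an H3 gene, had 2.09, 2.81, 5.28 and 2.55 FPKM in the wild type and 2.01, 1.29, 1.30 and 1.54 in the knockout. The difference of -0.68 (limma adjusted p = 0.0211) missed the threshold without knockout replicate 2 (adjusted p = 0.052) or knockout replicate 3 (adjusted p = 0.0511). HIST1H3B (-0.70, adjusted p = 0.133) and HIST1H4C (-0.28, adjusted p = 0.536) did not pass the limma test, and 1 knockout library of HIST1H3B and 2 of HIST1H4C were listed at 0. HIST1H4I went from 2.63 ± 0.355 to 3.35 ± 0.711 FPKM (SD, n = 4; 0.25, adjusted p = 0.126), and HIST4H4, the single cluster 4 gene, from 0.975 ± 0.21 to 1.22 ± 0.643 (0.13, adjusted p = 0.586).

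Of the 3 tested genes of cluster 2, on chromosome 1, HIST2H2AC fell, as given above. The others reached the filter through the wild type alone, so their lower knockout level was built in and is given as a description. They were HIST2H2BE, with 1.26, 1.51, 1.34 and 1.07 FPKM in the wild type and 0.585, 0.662, 0.622 and 0.949 in the knockout (-0.43, SE 0.11, limma adjusted p = 0.00674; 0.097 after quantile normalization), and HIST2H2BA. The latter is annotated as a transcribed pseudogene and lies apart from the rest of the cluster, at 121108210 to 121117257 on the minus strand. Its wild type libraries had 2.14, 2.27, 2.93 and 2.44 FPKM, and its knockout libraries were listed at 0 in replicates 1 and 2 and had 0.507 and 0.602 FPKM in replicates 3 and 4 (log2 fold change -1.46, limma adjusted p = 0.000107). It shared 63.5% of its 50-base words with other members, and the authors' deposited table gives it a q-value of 0.32. None of the 4 cluster 3 genes had a value above 0 in any library.

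Among the 29 genes that had values but were not tested, the highest group means were in the wild type. HIST2H2BB averaged 1.40 FPKM in the wild type and 0.15 in the knockout, HIST1H2AK 0.961 and 0.118, HIST1H4B 0.898 and 0.645, and HIST1H4A 0.787 and 0.615. HIST2H3DP1 averaged 1.06 FPKM in the wild type and was listed at 0 in all knockout libraries. The authors' deposited table, which also covers genes below the filter, gives HIST2H3DP1 a q-value of 0.00015. Its q-values for HIST2H2BB, HIST1H2AK and HIST1H4B are 0.304, 0.247 and 0.573. HIST2H3DP1 and HIST2H2BB are annotated as pseudogenes and share 62.4% and 70.7% of their 50-base words with other members.

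Summed over all 90 genes, the level was 217 ± 7.24 FPKM in the wild type and 221 ± 17.3 in the knockout (SD, n = 4), a difference smaller than the spread. The make-up of that sum shifted. HIST1H2BK held 36.3% of it in the wild type and 53.2% in the knockout, and HIST1H2BK with HIST1H1C 62.1% and 78.6%. By type, summed H2B genes went from 118 ± 5.32 to 138 ± 12.5 FPKM, H2A from 20.9 ± 1.54 to 12.5 ± 3.41, H3 from 9.42 ± 2.55 to 4.19 ± 1.17, H4 from 9.73 ± 0.99 to 8.42 ± 2.14 and H1 from 59.1 ± 5.37 to 57.6 ± 3.32. The H2A and H3 sums did not overlap between the groups, and those of H1, H2B and H4 did.

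The human cluster 1 lies on the short arm of chromosome 6 (6p). Of the non-histone genes between its rows and within 5 Mb, more fell than rose in the knockout. Over all tested genes 25.7% fell and 42.6% rose (median 0.18). Between the first and last cluster 1 rows, 10 of 18 tested non-histone genes fell and 3 rose, with a median log2 fold change of -0.70. HFE, whose product regulates iron uptake, went from 23.5 ± 1.44 to 4.40 ± 1.15 FPKM (SD, n = 4; -2.20, limma adjusted p = 1.45e-06). The butyrophilin genes, which encode membrane proteins of the immunoglobulin superfamily, fell together: BTN3A3 by 1.82 on the log2 scale, BTN3A2 by 1.72, BTN3A1 by 1.61, BTN2A2 by 1.17 and BTN2A1 by 0.85. HMGN4, which encodes a nucleosome-binding protein, rose from 56.9 ± 3.09 to 72.0 ± 2.88 FPKM (0.33, adjusted p = 0.0005), and ABT1 did not pass the test (0.16, adjusted p = 0.0504). Within 5 Mb on both sides, 59.4% of 160 non-histone genes fell and 16.9% rose (median -0.48). Most of those lie in the major histocompatibility complex, taken as 28 to 34 Mb. Without it, 13 of 26 fell and 6 rose (median -0.38), and these 26 include the 18 between the cluster 1 rows. Of the rest, ACOT13, C6orf62 and CARMIL1 fell, ALDH5A1, GMNN and TDP2 rose, and SOX4 and MRS2 did not pass the test. Over 6p without that complex, 47.6% of 273 genes fell and 26.0% rose (median -0.29), and on 6q, the other arm, 16.4% of 311 fell and 57.9% rose (median 0.48). Around the cluster 2 genes at 1q21, 39 of 119 non-histone genes fell and 39 rose (median -0.07), and around HIST4H4 on chromosome 12, 8 of 47 fell and 21 rose (median 0.25).

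**Figure D2:**
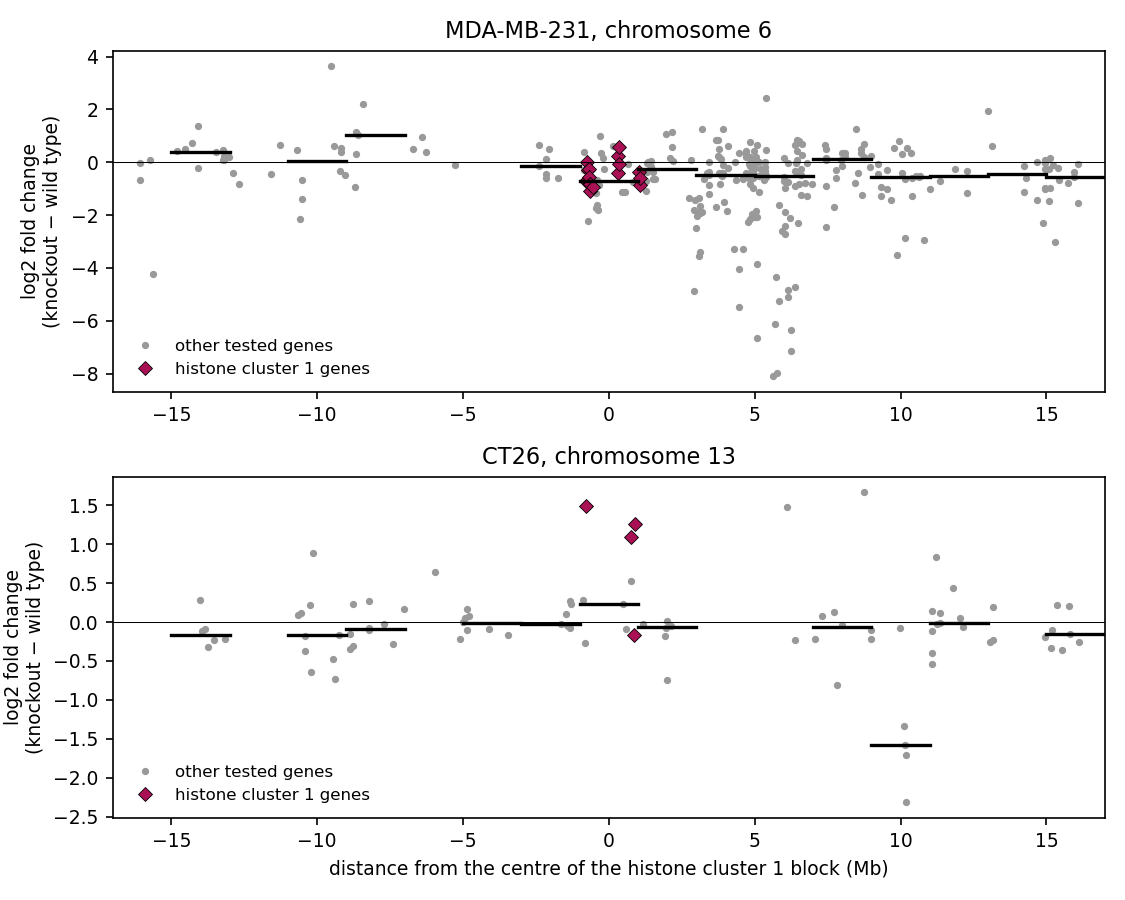
Log2 fold change (knockout minus wild type) of every tested gene against its distance in Mb from the centre of the cluster 1 block, on human chromosome 6 for MDA-MB-231 (upper) and mouse chromosome 13 for CT26 (lower); grey points are non-histone genes, red diamonds histone genes, and black bars medians of grey points in 2 Mb windows with at least 5 genes. In MDA-MB-231 the grey medians near the cluster lie below 0 (within 5 Mb the median was -0.48), and in CT26 they lie near 0 while 3 of the 4 histone genes in view lie above 1.

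To set the members against their neighbourhood, the median deviation of the non-histone genes within 10 Mb of each gene was subtracted in every library and the fit was repeated. For the cluster 1 genes on 6p, this window takes in the major histocompatibility complex, where 98 of 164 tested genes fell (median -0.48). The subtracted value there draws largely on that complex, and centring without it was not tested. The median of the 20 members moved from -0.50 to -0.26, and that of all tested genes was 0. Of the 20, 6 then fell and 3 rose, and 31.5% of all genes fell and 31.6% rose. HIST1H2BD (-0.72, adjusted p = 0.000415), HIST1H4H (-0.58, 0.0437) and HIST1H1E (-0.47, 0.0316) on 6p remained lower by limma, as did HIST2H2AC (-0.64, 0.00547) on chromosome 1. The other 2 of the 6 were HIST2H2BA (-1.42) and HIST2H2BE (-0.38), whose direction the filter had fixed and which are included in the medians of the 20. HIST1H2BK was then further above 0 (0.93, limma adjusted p = 1.21e-05), and HIST1H1C (0.37, 0.00244) and HIST1H4I (0.62, 0.00251) passed the test as higher. HIST1H2AC (-0.21, 0.096), HIST1H3C (-0.32, 0.237) and HIST1H2BO (-0.20, 0.465) no longer passed it, and HIST1H2BC changed sign (0.11, 0.321). For HIST4H4 the subtraction lowered the difference, from 0.13 to -0.39 (limma adjusted p = 0.11).

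**Figure D3:**
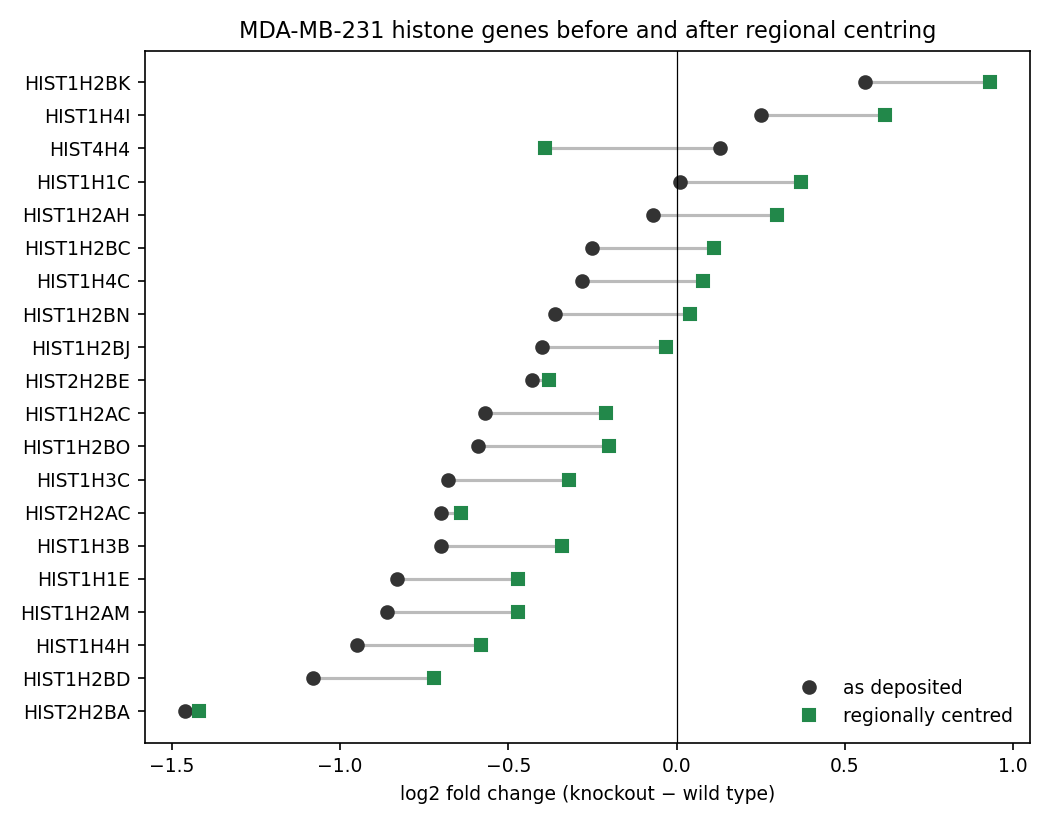
Log2 fold change of the 20 tested histone cluster genes in MDA-MB-231 before (black circles) and after (green squares) subtracting the median deviation of the non-histone genes within 10 Mb in each library. Cluster 1 genes shift to the right, with HIST1H2BK going from 0.56 to 0.93, the cluster 2 genes stay close to their place, and HIST4H4 shifts to the left.

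Many H2A and H2B genes face each other as divergent pairs with a short shared stretch between their starts, and the members of a pair did not always share a result. HIST1H2BK and HIST1H2AH are 330 bases apart, and the former rose by 0.56 while the latter differed by -0.07 (adjusted p = 0.802). HIST1H2BC and HIST1H2AC, 218 bases apart, differed by -0.25 and -0.57, HIST1H2AM and HIST1H2BO, 313 bases apart, by -0.86 and -0.59, and HIST2H2BE and HIST2H2AC, 322 bases apart, by -0.43 and -0.70. Whether the responses within a pair differed was not tested.

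The share of members that could be tested was 50% among those with a spliced transcript model and 16.2% among the rest. In GENCODE 29, 16 of the 90 genes have a transcript with several exons, and 8 of those were tested, of which 5 fell. Of the other 74, with a single exon in every transcript, 12 were tested, of which 5 fell and HIST1H2BK rose. These counts too stand beside 25.7% of all tested genes that fell, and each includes a gene whose direction the filter fixed (HIST2H2BA and HIST2H2BE). A stem-loop after the coding end was found in the models of 32 genes, 8 of them tested; for genes with models that stop at the coding end, such as HIST1H2BK, it cannot be seen. The stem-loops of 5 tested genes are printed because genes that fell and a gene without a call carried nearly the same letters. They come from GENCODE 29 transcripts on hg38, 5′ to 3′ in DNA letters, with the 16 bases of the stem-loop in capitals and 6 bases on each side.
HIST1H2BD: cccaaaGGCTCTTTTAAGAGCCacgcat
HIST1H2AC: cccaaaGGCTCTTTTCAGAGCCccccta
HIST2H2BE: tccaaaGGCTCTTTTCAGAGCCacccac
HIST1H4H: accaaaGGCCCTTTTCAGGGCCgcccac
HIST1H4I: taaaaaGGCCCTTTTTAGGGCCcctaag
The first 4 genes fell and HIST1H4I did not pass the test. The models ran past the stem-loop by up to 1128 bases in HIST1H2AC, 1729 in HIST2H2BE, 1655 in HIST1H4H, 1510 in HIST4H4 and 212 in HIST1H4I, and by 39 in HIST1H2BD. There were 6 members listed as known to give polyadenylated transcripts (HIST1H1C, HIST1H2AC, HIST1H2BC, HIST1H2BD, HIST1H2BK and HIST2H2BE). All 6 were tested, 4 fell and 1 rose, with a median of -0.34, where 25.7% of all tested genes fell and 42.6% rose; HIST2H2BE, 1 of the 4, had reached the filter through the wild type alone.

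In CT26 the histone cluster genes that passed the test were higher in the knockout. Of the 70 genes, 18 were listed at 0 in all 8 libraries, 44 had a value but were not tested, and 8 were tested. Of the 8, 5 rose and 3 did not pass the limma test, where 55.8% of all tested genes passed it, 22.3% as higher and 33.5% as lower. No tested member fell, at an adjusted or an unadjusted p below 0.05 in limma or by the q-value in the authors' deposited table. The 5 that rose had no overlap between groups, which held for 20.3% of all tested genes in that direction, for 31.1% in the other and for 51.5% in either. The median log2 fold change of the 8 was 0.93, beside -0.06 over all tested genes. Hist1h2bg reached the filter through the knockout alone, so its call adds nothing to the count. The median and the 5 genes without overlap include it, so its part in them was fixed too. Values above 0 were seen for 29 to 37 of the 70 genes in wild type libraries and 40 to 46 in knockout libraries, of which replicate 1 was the deepest; the part of depth in this was not tested.

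**Figure D4:**
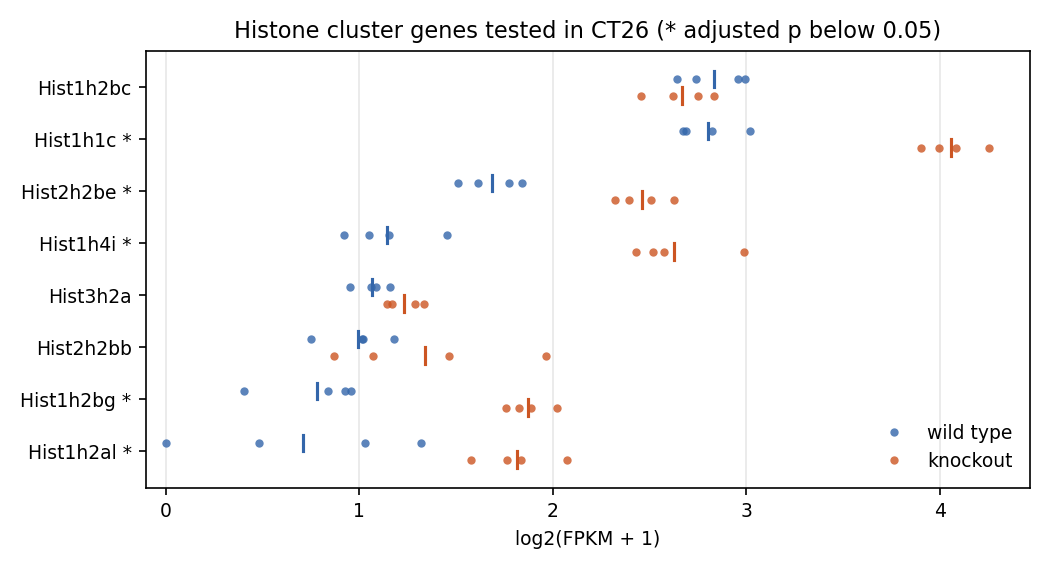
Level of each tested histone cluster gene in CT26, as log2(FPKM + 1) on the horizontal axis, with a point per library (blue, wild type; orange, knockout; 4 each), a bar at each group's mean, and a star where the limma adjusted p was below 0.05. For the 5 starred genes all knockout points lie to the right of the wild type points, and for Hist1h2bc, Hist3h2a and Hist2h2bb the groups overlap.

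Hist1h1c, the H1 linker gene that was the most abundant member in the knockout, had 5.44, 7.10, 5.38 and 6.07 FPKM in the wild type libraries and 14.9, 15.9, 13.9 and 18.04 in the knockout. The lowest knockout library was well above the highest wild type library, and the log2 fold change was 1.26 (SE 0.10, limma adjusted p = 1.73e-05). In mm10 its deposited locus is chromosome 13 from 23738808 to 23740367. Hist1h4i, an H4 gene at 22040636 to 22041362 of the same chromosome, had 1.22, 0.892, 1.07 and 1.74 FPKM in the wild type and 4.95, 4.39, 4.73 and 6.92 in the knockout. This was the largest difference among the 8 (1.48, SE 0.15, limma adjusted p = 6.94e-05).

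Hist2h2be, an H2B gene of cluster 2 on chromosome 3, had 2.06, 2.42, 2.58 and 1.85 FPKM in the wild type and 4.68, 4.25, 5.16 and 3.99 in the knockout (0.78, SE 0.099, limma adjusted p = 0.000236). Hist1h2bg, a cluster 1 H2B gene, had 0.902, 0.323, 0.79 and 0.944 FPKM in the wild type and 2.38, 2.54, 3.06 and 2.71 in the knockout (1.09, SE 0.13, limma adjusted p = 0.000194). Hist1h2al, annotated by its symbol as an H2A gene of cluster 1, lies far from the others on chromosome 13, at 51202698 to 51203065, and had 0.397, 1.49, 1.05 and 0 FPKM in the wild type and 2.39, 3.21, 2.57 and 1.99 in the knockout (1.11, SE 0.27, limma adjusted p = 0.00836). The authors' deposited table gives Hist1h2al a q-value of 0.216.

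Among the 3 genes without a call, Hist1h2bc was the most abundant member in the wild type, with 6.16 ± 0.833 FPKM there and 5.37 ± 0.718 in the knockout (SD, n = 4; -0.17, limma adjusted p = 0.227). Hist2h2bb went from 0.9998 ± 0.24 to 1.65 ± 0.924 FPKM (0.35, adjusted p = 0.225) and Hist3h2a, of cluster 3, from 1.09 ± 0.125 to 1.35 ± 0.151 (0.17, adjusted p = 0.114). No H3 gene was tested. The highest untested member was the H3 gene Hist1h3g, with means of 0.761 and 1.19 FPKM, followed by Hist1h2af (0.31 and 0.84), Hist1h4h (0.414 and 0.636), Hist1h4k (0.15 and 0.634) and Hist1h2bn (0.143 and 0.56), wild type first. Summed over all 70 genes, the level was 26.6 ± 1.93 FPKM in the wild type and 51.1 ± 3.69 in the knockout. The sums of H1 (6.53 ± 0.856 and 16.5 ± 1.54), H4 (2.73 ± 0.401 and 8.08 ± 1.5), H2A (2.79 ± 1.17 and 6.42 ± 0.798) and H2B genes (12.03 ± 0.589 and 16.6 ± 1.81) did not overlap between the groups, and the H3 sums did (2.52 ± 0.432 and 3.499 ± 0.964).

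Around the mouse cluster 1, few neighbouring genes passed the test. Within 5 Mb of the contiguous cluster 1 block on chromosome 13, 1 of 27 tested non-histone genes rose and 3 fell, with a median log2 fold change of -0.03. Over all tested genes 22.3% rose and 33.5% fell (median -0.06). The 5 tested non-histone genes between the cluster's rows were Zfp322a (0.22, adjusted p = 0.181), Abt1 (-0.09, 0.225), Prss16 (-0.27, 0.144), Zfp184 (0.28, 0.0966) and Gm11398 (0.53, 0.108), and none passed the limma test. With the stretch out to Hist1h2al included, 19 of 148 rose and 43 fell (median -0.05). Near the cluster 2 genes 18 of 79 rose and 20 fell (median -0.05). After the regional subtraction the 5 higher members remained higher by limma, with log2 fold changes of 0.85 to 1.52 (for Hist1h2bg, 1.15, this direction was fixed by the filter), and Hist3h2a also passed the test (0.31, adjusted p = 0.0184).

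Genes of the same symbol were tested in both lines in 4 cases. HIST1H1C differed by 0.01 in MDA-MB-231 and Hist1h1c by 1.26 in CT26, HIST1H4I by 0.25 and Hist1h4i by 1.48, HIST1H2BC by -0.25 and Hist1h2bc by -0.17, and HIST2H2BE by -0.43 and Hist2h2be by 0.78. The tables were normalized separately and the differences between lines were not tested. A shared symbol does not make cluster genes direct counterparts between the species.

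The genes that act on histone genes and their products were set beside the members. In MDA-MB-231, 42.6% of all tested genes rose and 25.7% fell, and the counts of each list stand beside these shares. Of 27 tested genes for histone mRNA processing and transcription, 18 rose and 3 fell (median log2 fold change 0.38). CSTF2T, a cleavage factor subunit (1.43), SYMPK, a scaffold of the processing complex (0.80), and CDK2, the S phase kinase (0.70), rose, and NFYA, a subunit of the factor that binds the CCAAT box, fell (-1.12). SLBP, named here after its value was seen, rose from 89.4 ± 3.22 to 145 ± 8.26 FPKM (SD, n = 4; 0.69, limma adjusted p = 3.76e-06), and NPAT, the coactivator of histone gene transcription, had 11.2 ± 1.34 and 11.9 ± 1.05 FPKM (0.08, adjusted p = 0.485). Of 30 S phase genes 22 rose and 3 fell (median 0.51), among the former GINS2 (1.62), FEN1 (1.26), CDC6 (1.06) and PCNA (0.77), all replication factors. Of 20 G2/M genes 15 rose and 2 fell (median 0.34), with CDK1 at 0.96 and PLK1 at 0.63. Of 22 histone chaperone genes 14 rose (median 0.42), such as SUPT16H (1.42) and SSRP1 (1.13), the subunits of FACT, IPO4 (1.61) and NAP1L1 (0.63). Of 11 tested genes listed as replication-independent histones, 7 rose (median 0.32), among them H3F3B (0.77), H1FX (0.73), H1F0 (0.71) and H2AFZ (0.27). With upper-quartile scaling the higher and lower counts were 19 and 6 of 30 for S phase, 10 and 4 of 20 for G2/M, 11 and 4 of 22 for chaperones and 4 and 3 of 11 for replication-independent histones. Over all tested genes 32.8% were then higher and 33.6% lower. With regional centring the list counts were 23 and 3 for S phase, 6 and 4 for G2/M (median 0.01), 12 and 1 for chaperones and 4 and 1 for replication-independent histones (median 0.08). All tested genes then had 31.6% higher and 31.5% lower.

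**Figure D5:**
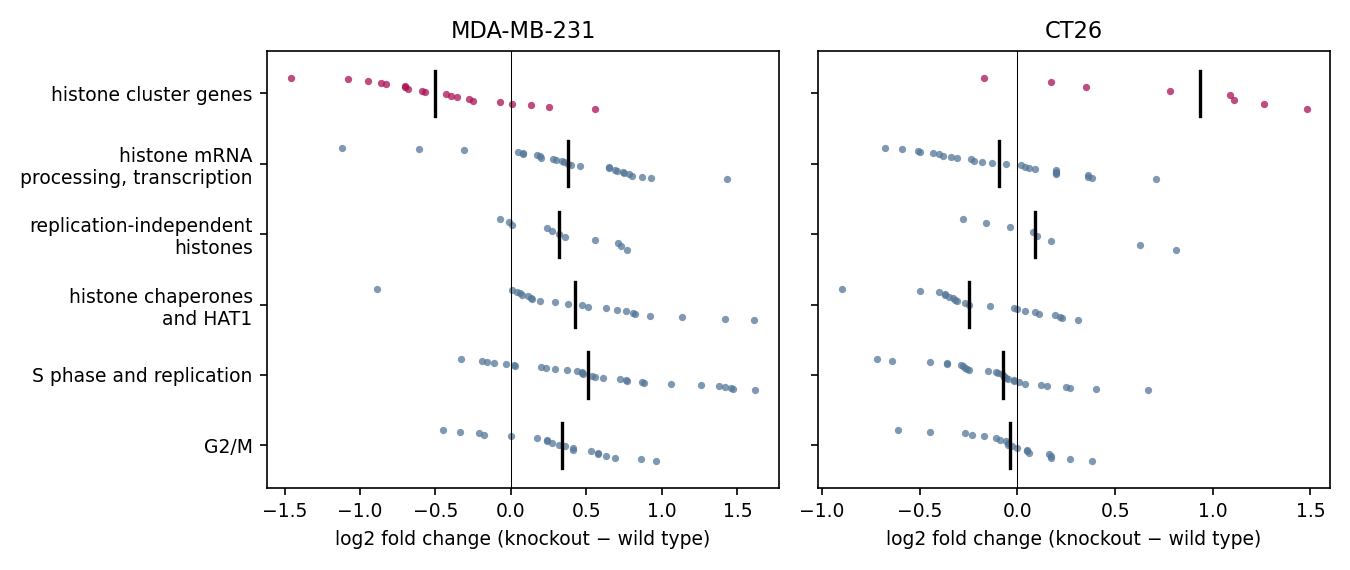
Log2 fold change (knockout minus wild type) of each tested gene in the histone clusters (red) and in 5 other gene lists (blue), a point per gene and a black bar at each list's median, for MDA-MB-231 (left) and CT26 (right). The histone cluster median was -0.50 in MDA-MB-231, where the other lists had medians of 0.32 to 0.51, and 0.93 in CT26, where they had medians of -0.25 to 0.09. The histone medians include HIST2H2BA and HIST2H2BE in MDA-MB-231 and Hist1h2bg in CT26, whose direction the filter had fixed.

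In CT26 the same lists were mixed. Over all tested genes of that line 22.3% rose and 33.5% fell. Of 26 tested processing and transcription genes 8 rose and 12 fell (median -0.10), with Cpsf3, the endonuclease that cuts histone pre-mRNA, at 0.71, Cpsf2 at 0.38, Ccne1, an S phase cyclin, at -0.51, and Ncbp2, a cap-binding subunit, at -0.68. Slbp, named after its value was seen, rose from 71.1 ± 2.67 to 91.3 ± 4.45 FPKM (0.36, limma adjusted p = 0.000185), and Npat fell from 7.18 ± 0.913 to 5.28 ± 0.621 (-0.38, limma adjusted p = 0.0112). Of 28 S phase genes 5 rose and 11 fell (median -0.08), with Rrm2, a ribonucleotide reductase subunit, at 0.67 and the helicase subunits Mcm6 and Mcm3 at -0.72 and -0.64. Of 20 G2/M genes 5 rose and 5 fell (median -0.04). Of 21 chaperone genes 4 rose and 12 fell (median -0.25), the latter including Chaf1b (-0.90) and Chaf1a (-0.32), which deposit new H3 and H4 behind the replication fork. Of 8 replication-independent histone genes 4 rose and 2 fell (median 0.09), with the linker gene H1f0 at 0.81, from 151 ± 3.95 to 265 ± 3.34 FPKM. With upper-quartile scaling the chaperone list had 8 higher and 10 lower genes, and the G2/M list 6 and 3 (29.2% and 25.0% of all tested genes). With regional centring 0 of 28 S phase genes were higher and 9 lower by limma. Of 8 replication-independent histones 7 were then higher, and the processing list had 3 higher and 9 lower of 26. Over all tested genes 22.7% were then higher and 22.6% lower.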

How the data were processed

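RNA from 16 libraries in 4 groups was read from a table per line. Per the submitters' processing notes, bcl2fastq 2.18, STAR 2.5.4a, Cufflinks 2.2.1 and Cuffdiff were used, with builds hg38 and mm10; annotation release, strand use and RNA selection are not given there. The authors deposited an FPKM value per gene and library, which was used as deposited. The authors' deposited p-value and q-value are quoted only where named. The status column marked 13 genes of MDA-MB-231 and 210 of CT26 as too deep to estimate, all listed at 0; no histone gene was among them.

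Log2(FPKM + 1) was fitted for each line alone in limma 3.58.1 (R 4.3.3) using a mean-variance trend, genotype being the only term, two-sided, for genes with at least 1 FPKM in at least 4 of 8 libraries. The fit was tested on simulated data. Relative depth was read from the steps of low FPKM values and is approximate; no interval was built on it. Regional centring subtracted, in each library, the median deviation of non-histone genes within 10 Mb, where at least 10 were tested. Gene models came from GENCODE 29, promoters from RefSeq (GRCh38.p14), motifs and stem-loops from pattern searches in Python 3.11.15 with pandas 2.3.3. Human positions are from GENCODE 29 and mouse positions from the deposited loci.

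The members and all gene lists were chosen with earlier results of these data known. Named were all tested members, the 5 highest untested members per line, up to 8 non-histone genes inside cluster 1 by mean FPKM, up to 4 genes per other list by adjusted p, and the targeted gene. Alternatives were the pseudocount, the filter, the scaling, regional centring, no trend, a replicate block and leaving out each library; leaving out pseudogenes was added after seeing the data.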

Additional observations from a re-analysis of the deposited data

Results flagged for a closer look

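Among 56 groups of 4 libraries, 1 tested member had a library that stood apart by Dixon's criterion, which chance meets in about 1 of 20 groups. HIST1H2BD in MDA-MB-231 knockout replicate 4 had 6.12 FPKM, where the other knockout libraries had 8.33 to 8.64.

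HIST2H2BE was lower in the MDA-MB-231 knockout (log2 fold change -0.43) and Hist2h2be higher in the CT26 knockout (0.78), with no overlap between knockout and wild type libraries in either line. HIST2H2BE had reached the filter through the wild type alone, so its lower level was built into its being tested. The difference between the lines was not tested.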

How the results depend on the processing

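Of the called members, 6 of 11 in MDA-MB-231 and 5 of 5 in CT26 kept their direction and their side of the threshold under all alternatives in which they were tested. These include HIST2H2BA in MDA-MB-231 and Hist1h2bg in CT26, whose direction the filter had fixed, so their stability adds nothing to the counts. In MDA-MB-231 the 10 lower members became 2 of 4 tested with a minimum of 5 FPKM, where 25.5% of all tested genes were lower. They became 6 with regional centring, under which the higher members went from 1 to 3 (31.5% and 31.6% of all tested genes). They were 14 with upper-quartile scaling, where 33.6% of all tested genes were lower, 8 with quantile normalization (30.1%), and 9 without the annotated pseudogene (25.7%, as in the reported fit). In CT26, 49 members were tested when a value above 0 in 2 libraries sufficed. Then 11 were higher and 1 lower (Hist1h2bl), beside 13.7% and 18.2% of all tested genes. Hist1h2ak and Hist1h2bl reached that filter through a single group, so their direction was fixed. With a minimum of 5 FPKM, 1 of 2 tested members was higher, beside 23.0% of all tested genes. Leaving out a library gave 7 to 9 lower and 1 higher in MDA-MB-231 and 5 higher in CT26 each time. Over all tested genes 24.0% to 25.2% were then lower and 40.5% to 41.7% higher in MDA-MB-231, and 20.1% to 21.9% higher in CT26. The counts of neighbouring genes within 5 Mb stayed within 1.5 times.

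The reversals all concerned members of MDA-MB-231. HIST1H1C became -0.20 with upper-quartile scaling and -0.21 with quantile normalization, and ranged from -0.06 to 0.06 when a library was left out. HIST1H2AH became 0.06 with quantile normalization and 0.30 with regional centring, and ranged from -0.19 to 0.08 with a library left out. HIST4H4 became -0.39 with centring and ranged from -0.04 to 0.28 with a library left out. Centring also turned HIST1H2BC (0.11), HIST1H2BN (0.04) and HIST1H4C (0.08). Apart from the centring, which subtracts the neighbours' shift by construction, the cause was not tested.

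Deviations of same-numbered libraries correlated at -0.0365 to 0.00442 in MDA-MB-231 and 0.0273 to 0.0779 in CT26. Differently numbered libraries gave -0.0704 to 0.0852 in MDA-MB-231 and -0.0592 to 0.0207 in CT26. The same-numbered values of CT26 were thus the highest there. Values this small do not settle if the numbers pair libraries. With a replicate block 9 members were lower and 1 higher in MDA-MB-231 (25.1% and 41.7% of all tested genes), and 5 higher in CT26 (21.1%). HIST1H2BC and HIST1H2BO then missed the threshold and HIST1H3B (adjusted p = 0.0282) passed it. Members near 1 FPKM rest on few fragments, above all in the shallower MDA-MB-231 knockout libraries, so small differences there may not have been detectable.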
